A study of Mus musculus with 4 samples.

Results

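The glycolysis and TCA cycle gene set held 38 genes, 19 for glucose uptake, glycolysis and lactate formation and 19 for pyruvate dehydrogenase and the TCA cycle. The members were taken by symbol from a list of pathway enzymes and were looked up among the 33565 genes listed in the count matrices. All 38 symbols were found, although Aldoa was listed under 2 identifiers. ENSMUSG00000030695 was used, and the other identifier, an overlapping gene on the same strand, was left out with 10 UMIs in N2a, 11 in NIH/3T3 cells and 3 in mESCs.

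The matrices came from a single CapSeq library, in which cells trapped in semi-permeable capsules receive 3 successive barcodes, and the first of these (BC1) records the cell line. A unique molecular identifier (UMI) marks each captured RNA molecule, so each count is a count of molecules. Neuro-2a (N2a) is a mouse neuroblastoma line and NIH/3T3 a mouse embryonic fibroblast line, and both were grown in DMEM with 10% fetal bovine serum. The mESCs were E14TG2a mouse embryonic stem cells, grown on gelatin in DMEM with 15% serum, 0.1 mM sodium pyruvate, 0.1 mM mercaptoethanol, 1 mM alanyl-glutamine, non-essential amino acids, LIF at 1000 U per ml, 3 µM CHIR99021 (a GSK3 inhibitor) and 1 µM PD0325901 (a MEK inhibitor). All lines were kept at 5% CO2 and 37 °C. No line carried a labelled genetic change, and line and medium cannot be told apart. Each line was 1 sample in the same library, so there is no replicate check and no test between lines.

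Glycolysis splits a glucose molecule in the cytosol into pyruvate, which is either reduced to lactate or carried into mitochondria and oxidised to acetyl-CoA by pyruvate dehydrogenase. The TCA cycle then oxidises that acetyl group and hands electrons to the respiratory chain. Several steps are covered by isozymes from separate genes, which differ in kinetics and in the tissues that express them, and proliferating cells are known for high glycolytic flux even in the presence of oxygen.

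With a floor of 1000 UMIs per cell and a ceiling of 20% for the mitochondrial share, 2323 N2a, 2037 NIH/3T3 and 2137 mESC barcodes remained, 6497 in all. They held 17955221, 11697865 and 12322098 UMIs, with medians of 6185, 4863 and 4803 UMIs per cell. The 32 BC1 sequences of a line differ from those of the other lines, and 0 barcodes had UMIs in more than 1 line. Levels are given as UMIs per 1000000 UMIs of the filtered cells of a line (CPM), with an exact 95% Poisson interval where an interval follows. These intervals cover counting error only, and 0 counts would allow up to 0.167 CPM in N2a, 0.256 CPM in NIH/3T3 cells and 0.243 CPM in mESCs. The marker genes matched the labels for most genes: Hand2 was at 404 CPM in N2a, Prrx1 at 622 CPM in NIH/3T3 cells and Zfp42 at 1318 CPM in mESCs. Gata3, a marker of sympathetic neuroblasts, was low in N2a at 3.84 CPM and higher in mESCs at 8.44 CPM, and Thy1 was at 5.98 CPM in NIH/3T3. The 6 mESC markers together were found in NIH/3T3 at 0.359% of their mESC level, with single genes at 0.0908% to 0.624%, and in N2a at 0.262%, with single genes at 0.0592% to 0.500%. A member at such a fraction of its level in mESCs was read as background.

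The glycolysis list was highest in NIH/3T3, whereas the TCA list was lowest in mESCs. The glycolysis sum includes members with near-identical copies elsewhere in the genome, whose levels are uncertain, as given below. Over the glycolysis members without such copies, the levels added up to most in mESCs and least in NIH/3T3. The 19 glycolysis genes summed to 2892 CPM in N2a (2867 to 2917), 4551 CPM in NIH/3T3 cells (4513 to 4590) and 3563 CPM in mESCs (3530 to 3597). NIH/3T3 cells thus had 1.28 times the mESC level of glycolysis transcripts (95% counting interval 1.26 to 1.29), and N2a cells had 0.635 times the NIH/3T3 level (0.628 to 0.643). The 19 TCA genes summed to 2748 CPM in N2a, 2744 CPM in NIH/3T3 cells and 2171 CPM in mESCs. N2a and NIH/3T3 did not differ in the TCA sum beyond counting error, with a ratio of 1.00 (0.987 to 1.02), and each stood above mESCs by a ratio of 1.27 (1.25 to 1.28) and 1.26 (1.24 to 1.28). Both lists took a small part of the transcriptome, with 0.289% to 0.455% of UMIs for glycolysis and 0.217% to 0.275% for the TCA cycle.

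The 32 BC1 sequences of each line served as a technical spread within the library. Over them the glycolysis sum ran from 2605 to 3206 CPM in N2a (median 2923), from 3224 to 4132 CPM in mESCs (median 3573) and from 4094 to 5195 CPM in NIH/3T3 cells (median 4598). N2a did not overlap with either other line, and the highest mESC value lay above the lowest NIH/3T3 value. The TCA sum ran from 2490 to 3024 CPM in N2a, from 2489 to 3018 CPM in NIH/3T3 cells and from 1956 to 2594 CPM in mESCs, so that the mESC range overlapped with both others. BC1 sequences of a line share the culture and the library and are not biological replicates.

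**Figure D1:**
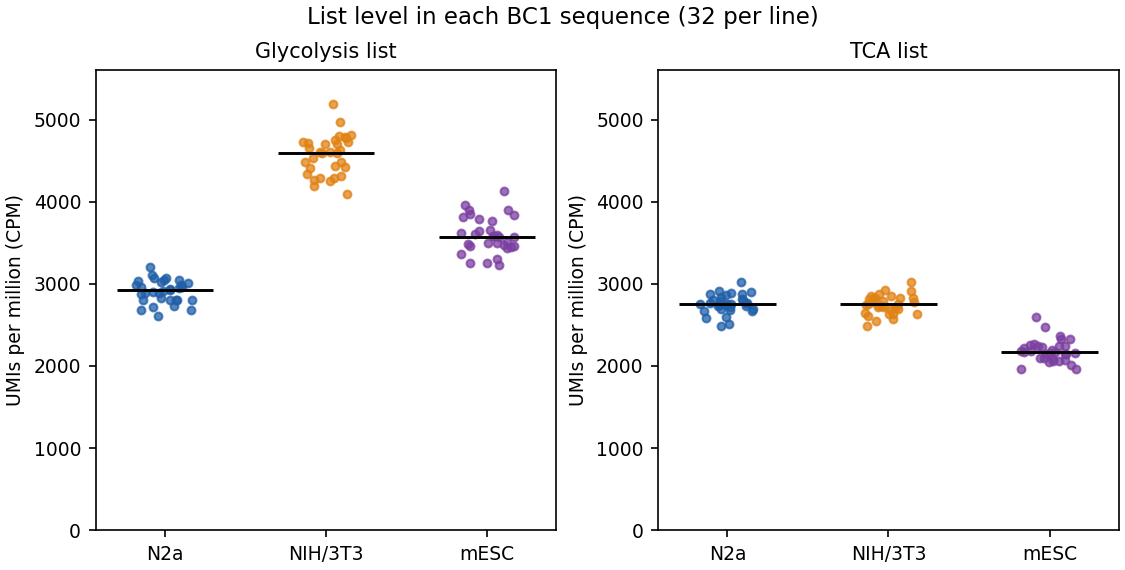
Summed level of the glycolysis list (left) and the TCA list (right) in CPM for each of the 32 BC1 sequences of a line, with the median as a black bar. Glycolysis medians were 2923 in N2a, 4598 in NIH/3T3 cells and 3573 in mESCs, and the TCA values of mESCs (1956 to 2594) lay lowest.

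The glycolysis members did not share a common order of the lines. The most even member of that list was Gpi1, the isomerase of glucose 6-phosphate, with 216 CPM in N2a, 221 CPM in NIH/3T3 cells and 204 CPM in mESCs. For each member the highest line was divided by the lowest after 1 CPM was added to both. This quotient had a median of 3.46 over the glycolysis list and 1.71 over the TCA list, beside 2.13 over the 9909 genes with a mean of at least 10 CPM. Of the 19 glycolysis members 10 had their highest level in NIH/3T3, 7 in mESCs and 2 in N2a, and of the 19 TCA members 8 did so in N2a, 7 in NIH/3T3 cells and 4 in mESCs. The interval of the highest line lay wholly above that of the next line for 30 of the 38 members, 16 in glycolysis and 14 in the TCA cycle.

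**Figure D2:**
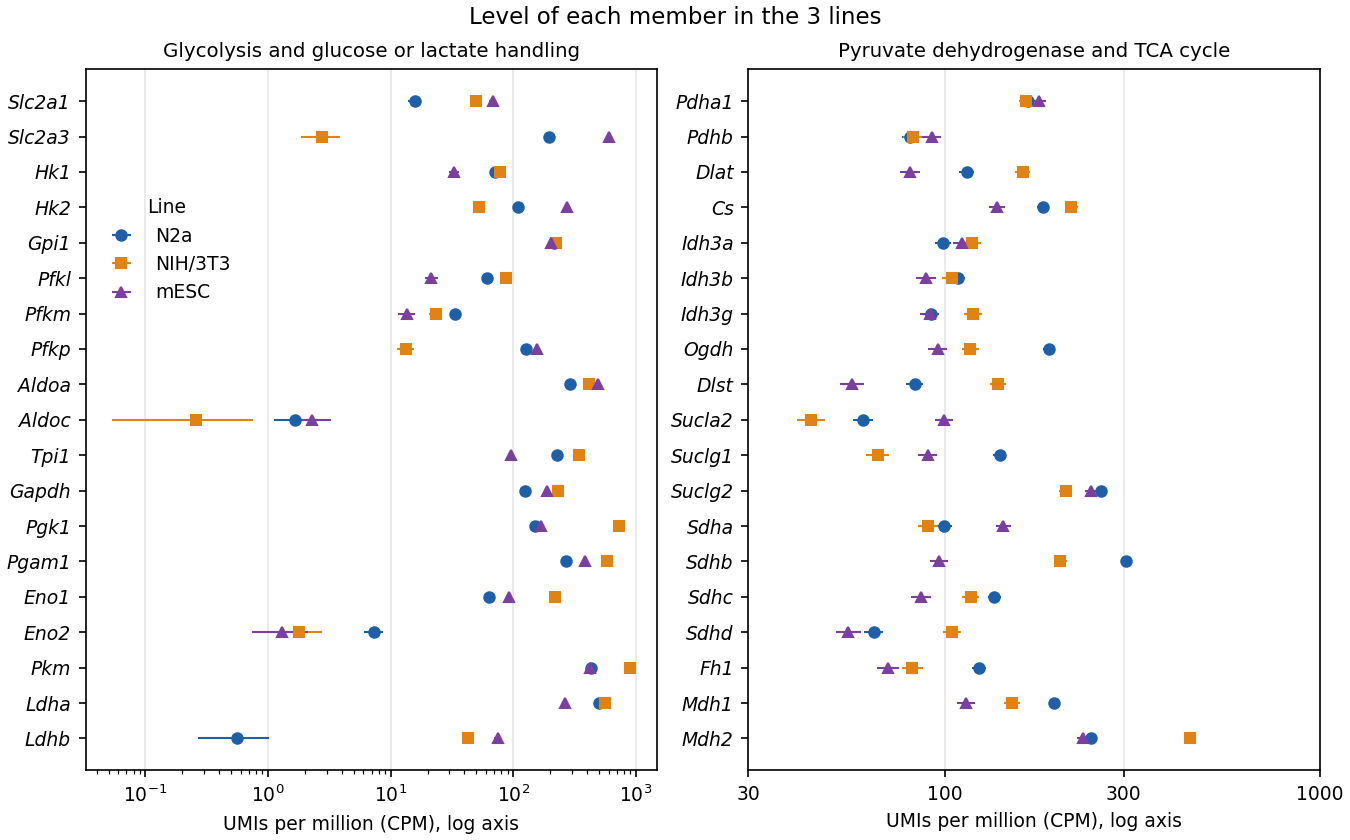
Level of each of the 38 members in CPM on a log axis, for N2a (circles), NIH/3T3 (squares) and mESCs (triangles), with exact 95% Poisson intervals as bars. Slc2a3 ran from 2.74 in NIH/3T3 to 602 in mESCs and Ldhb from 0.557 in N2a to 75.0 in mESCs, while the 3 values of Gpi1 lay between 204 and 221.

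A 2-fold difference was counted where log2(CPM + 1) differed by at least 1, among genes with a mean of at least 10 CPM over the lines. Aldoc and Eno2 were below that mean, which left 36 members, 17 of glycolysis and 19 of the TCA cycle. With 1 sample per line these counts describe the libraries. Slc2a3, Hk2, Pfkp and Suclg1 were at least 2-fold higher in N2a than in NIH/3T3, 4 of 36 members beside 15.5% of all genes. Slc2a1, Pgk1, Pgam1, Eno1, Pkm and Ldhb were higher in NIH/3T3 than in N2a, 6 of 36 beside 15.9%. Over both lists together those shares are near the background of all genes and were not read as a property of the members. By list, 3 of 17 glycolysis and 1 of 19 TCA members were higher in N2a, beside the same 15.5%. In NIH/3T3 6 of 17 and 0 of 19 were higher, beside the same 15.9%. Of those 6, Pgk1, Pgam1, Eno1, Pkm and Ldhb have near-identical copies elsewhere in the genome, as given below, so their levels are uncertain.

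Hk1, Pfkl, Pfkm, Tpi1 and Sdhb were at least 2-fold higher in N2a than in mESCs, 5 of 36 members beside 19.7% of all genes. Slc2a1, Slc2a3, Hk2 and Ldhb were higher in mESCs than in N2a, 4 of 36 beside 17.0%. Hk1, Pfkl, Tpi1, Pgk1, Eno1, Pkm, Ldha, Dlst and Sdhb were higher in NIH/3T3 than in mESCs, 9 of 36 or 25%, beside 19.6%. Slc2a3, Hk2, Pfkp and Sucla2 were higher in mESCs than in NIH/3T3, 4 of 36 beside 17.8%. These shares over both lists, too, were not read as particular to the members. Glycolysis members made up 4 of 17 in each direction between N2a and mESCs. They made up 7 of 17 for NIH/3T3 over mESCs and 3 of 17 for mESCs over NIH/3T3. Among those 7, Tpi1, Pgk1, Eno1 and Pkm have near-identical copies elsewhere in the genome. TCA members made up at most 2 of 19 in any of these counts. At 1.5-fold, 5 of 36 members were higher in N2a than in NIH/3T3 beside 25.6% of all genes, and 11 the other way beside 25.4%. For N2a and mESCs these counts were 11 higher in N2a beside 29.5% and 6 higher in mESCs beside 25.3%, and for NIH/3T3 and mESCs 14 higher in NIH/3T3 beside 29.8% and 6 higher in mESCs beside 27.0%. The median log2 difference of N2a over NIH/3T3 was -0.53 over the 17 glycolysis members and 0.05 over the 19 TCA members, beside 0.02 over all 9909 genes. For N2a over mESCs it was -0.32 and 0.28 beside 0.05, and for NIH/3T3 over mESCs 0.58 and 0.29 beside 0.03.

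Glucose enters the cell through facilitative transporters, of which Slc2a1 (GLUT1) is the widely expressed form and Slc2a3 (GLUT3) a high-affinity form best known from neurons. The stretches before their start sites are shown because these transporters showed the widest isoform switch of the set. The Slc2a1 stretch is chr4:118965658-118965907 on the plus strand of GRCm39, directly before the start of the canonical transcript (gene at chromosome 4, 118965908 to 118996365). The Slc2a3 stretch is chr6:122719880-122719954 on the minus strand, 75 bases that end where an exon of another transcript begins, before the canonical start and inside the span of the gene (chromosome 6, 122704768 to 122778599). Capitals mark ACGTG, a form of the core of the hypoxia response element and part of the E-box, and GGGCGG, the GC box, on either strand. The form GCGTG of that core was not searched and is not marked. The Slc2a3 stretch shows only the far end of the 250 bases before the canonical start, and the rest, not shown, held 1 match to GGGCGG.
Slc2a1: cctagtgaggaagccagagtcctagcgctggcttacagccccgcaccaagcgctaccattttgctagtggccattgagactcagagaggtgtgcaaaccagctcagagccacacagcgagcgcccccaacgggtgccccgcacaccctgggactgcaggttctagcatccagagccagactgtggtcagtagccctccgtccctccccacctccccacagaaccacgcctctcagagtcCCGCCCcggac
Slc2a3: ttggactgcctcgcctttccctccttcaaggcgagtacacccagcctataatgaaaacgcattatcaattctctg

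Slc2a3 had 3514 UMIs in N2a, 32 in NIH/3T3 cells and 7414 in mESCs, or 196 CPM (189 to 202), 2.74 CPM (1.87 to 3.86) and 602 CPM (588 to 616). Its level in mESCs was 3.07 times that in N2a (2.95 to 3.20). The NIH/3T3 level was 0.455% of the mESC level (0.311 to 0.642), within the range of the mESC markers there, and was read as background, so the fold against NIH/3T3, and the Slc2a3 share there, are set by that background. Over BC1 sequences Slc2a3 ran from 144 to 243 CPM in N2a, from 0 to 14.9 CPM in NIH/3T3 cells and from 465 to 720 CPM in mESCs, with no overlap between lines.

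Slc2a1 was at 15.7 CPM in N2a (13.9 to 17.6), 49.6 CPM in NIH/3T3 cells (45.6 to 53.8) and 67.8 CPM in mESCs (63.3 to 72.6). It was 3.16 times as high in NIH/3T3 as in N2a (2.73 to 3.65), and the BC1 ranges of NIH/3T3, 32.5 to 76.2 CPM, and mESCs, 25.8 to 117 CPM, overlapped. The higher Slc2a1 level of NIH/3T3 did not make up for its low Slc2a3 in the sum: both transporters together came to 211 CPM in N2a, 52.3 CPM in NIH/3T3 cells and 670 CPM in mESCs. Slc2a3 took 92.6% of the transporter UMIs in N2a cells (91.7 to 93.4, an exact binomial interval at 95% as for all shares), 5.23% in NIH/3T3 cells (3.604 to 7.30) and 89.9% in mESCs (89.2 to 90.5). Divided by exonic length, its share was 88.6%, 3.34% and 84.7%, and divided by gene span 83.7%, 2.23% and 78.5%.

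Hexokinases phosphorylate glucose and so hold it in the cell, and Hk1 is the broadly expressed form whereas Hk2 is a form induced in muscle, fat and many tumours. Hk2 was at 109 CPM in N2a (104 to 114), 52.2 CPM in NIH/3T3 cells (48.2 to 56.5) and 272 CPM in mESCs (263 to 281). It was 2.49 times as high in mESCs as in N2a (2.35 to 2.63) and 5.21 times as high as in NIH/3T3 cells (4.78 to 5.68). Hk1 went the other way, with 70.4 CPM in N2a, 77.5 CPM in NIH/3T3 cells and 32.9 CPM in mESCs. The intervals of N2a and NIH/3T3 overlapped for Hk1.

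Hk2 therefore made up 60.8% of the UMIs of Hk1 and Hk2 in N2a (59.1 to 62.5), 40.3% in NIH/3T3 cells (37.8 to 42.8) and 89.2% in mESCs (88.2 to 90.2). Over BC1 sequences the Hk2 share ran from 44.4% to 72.1% in N2a, from 20% to 54.2% in NIH/3T3 cells and from 78.4% to 96.3% in mESCs. The mESC shares thus lay above those of both other lines, which overlapped. Which form led in NIH/3T3 depended on the length correction: the Hk2 share was 41.7% per exonic kilobase and 59.1% per kilobase of gene span. Both hexokinases together came to 180 CPM in N2a, 130 CPM in NIH/3T3 cells and 305 CPM in mESCs.

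**Figure D3:**
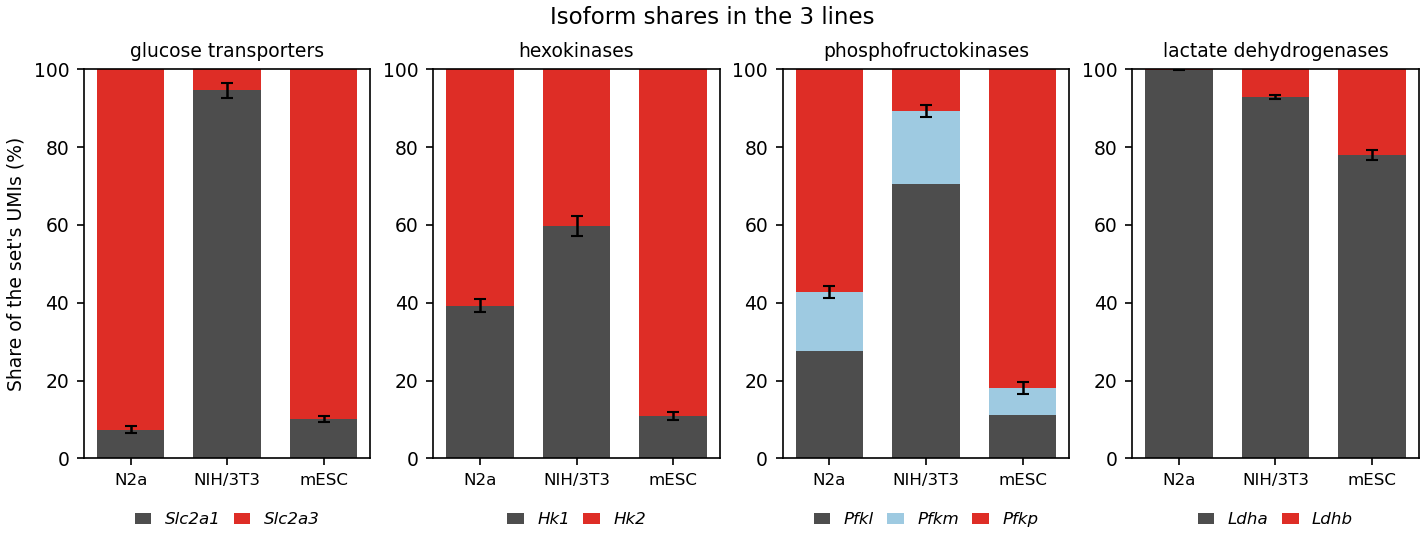
Share of each isoform in the UMIs of its set, in percent, for glucose transporters, hexokinases, phosphofructokinases and lactate dehydrogenases in the 3 lines. Black bars are exact 95% binomial intervals of the uppermost isoform. Slc2a3 took 92.6% in N2a, 5.23% in NIH/3T3 cells and 89.9% in mESCs, and Ldhb took 0.111%, 7.09% and 22.1%.

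Phosphofructokinase commits sugar to glycolysis as a tetramer of liver (Pfkl), muscle (Pfkm) and platelet (Pfkp) subunits. Pfkp was at 126 CPM in N2a (121 to 131), 13.3 CPM in NIH/3T3 cells (11.2 to 15.5) and 157 CPM in mESCs (150 to 164). It stood out as low in NIH/3T3, 9.52 times below N2a (8.09 to 11.3) and 11.9 times below mESCs (10.1 to 14.1). Pfkl had the reverse order, with 60.9 CPM in N2a, 88.1 CPM in NIH/3T3 cells and 21.4 CPM in mESCs, while Pfkm had 33.6, 23.4 and 13.5 CPM.

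Pfkp took 57.2% of phosphofructokinase UMIs in N2a and 81.8% in mESCs, and Pfkl took 70.6% in NIH/3T3. Per exonic kilobase the leading subunit of each line stayed the same, with Pfkp at 47.5% in N2a and 75.1% in mESCs and Pfkl at 66.7% in NIH/3T3. Per kilobase of gene span Pfkl led in N2a with 45.3% against 37.7% for Pfkp. The 3 subunits summed to 221 CPM in N2a, 125 CPM in NIH/3T3 cells and 192 CPM in mESCs.

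Aldolase splits fructose 1,6-bisphosphate into triose phosphates, and nearly all of its UMIs came from Aldoa, the muscle and general form. Aldoa was at 288 CPM in N2a (280 to 296), 412 CPM in NIH/3T3 cells (401 to 424) and 492 CPM in mESCs (479 to 504). Aldoc, the brain form, had 30 UMIs in N2a, 3 in NIH/3T3 cells and 28 in mESCs, at most 0.577% of aldolase UMIs in any of the lines. Aldoc was thus a minor form in the neuroblastoma line too.

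From triose phosphates down to lactate the order of the lines changed. Tpi1, Gapdh, Pgk1, Pgam1, Eno1, Pkm and Ldha each had their highest level in NIH/3T3. Tpi1, which interconverts the triose phosphates, was at 229 CPM in N2a, 347 CPM in NIH/3T3 cells and 95.5 CPM in mESCs, so that mESCs had the lowest level here. Gapdh, the dehydrogenase widely used as a reference gene, was at 126 CPM in N2a (121 to 131), 230 CPM in NIH/3T3 cells (221 to 239) and 187 CPM in mESCs (180 to 195). It was 1.83 times as high in NIH/3T3 as in N2a (1.73 to 1.93).

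Pgk1 makes the first ATP of glycolysis and had the largest excess over both other lines among the 10 glycolysis members that were highest in NIH/3T3. It was at 151 CPM in N2a (145 to 156), 727 CPM in NIH/3T3 cells (712 to 743) and 169 CPM in mESCs (162 to 176). The NIH/3T3 level was 4.83 times that of N2a (4.62 to 5.04) and 4.30 times that of mESCs (4.10 to 4.52). Over BC1 sequences it ran from 641 to 903 CPM in NIH/3T3, above the ranges of 114 to 212 CPM in N2a and 131 to 216 CPM in mESCs. The stretch before its start site is shown because of that excess, at chrX:105230456-105230705 on the plus strand (gene at chromosome X, 105230706 to 105247305), with the same motifs in capitals. It held 2 matches to ACGTG.
Pgk1: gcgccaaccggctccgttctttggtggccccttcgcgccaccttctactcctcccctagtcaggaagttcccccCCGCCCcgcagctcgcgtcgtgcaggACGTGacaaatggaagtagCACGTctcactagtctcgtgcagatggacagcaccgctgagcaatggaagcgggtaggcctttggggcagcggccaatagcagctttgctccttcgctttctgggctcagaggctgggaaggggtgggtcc

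Pgam1, which moves the phosphate of phosphoglycerate, was at 270 CPM in N2a, 578 CPM in NIH/3T3 cells and 388 CPM in mESCs. Eno1, the general enolase, was at 63.0 CPM in N2a, 221 CPM in NIH/3T3 cells and 92.6 CPM in mESCs, and was 3.50 times as high in NIH/3T3 as in N2a (3.26 to 3.76). Eno2, the neuronal enolase, had 131 UMIs in N2a, 21 in NIH/3T3 cells and 16 in mESCs. It took 10.4% of the UMIs of Eno1 and Eno2 in N2a (8.74 to 12.2), against 0.806% in NIH/3T3 cells and 1.38% in mESCs, so N2a stood apart although its Eno2 level was only 7.30 CPM (6.10 to 8.66).

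Pkm, the pyruvate kinase of most tissues, was at 430 CPM in N2a (420 to 439), 900 CPM in NIH/3T3 cells (883 to 918) and 426 CPM in mESCs (415 to 438). N2a and mESCs did not differ beyond counting error, with a ratio of 1.01 (0.973 to 1.04). The gene-level counts do not separate the PKM1 and PKM2 splice forms. Summed from Tpi1 to Ldhb, the 9 genes of the later steps came to 1775 CPM in N2a, 3610 CPM in NIH/3T3 cells and 1699 CPM in mESCs. Summed from Slc2a1 to Aldoc, the other 10 genes came to 1117, 941 and 1865 CPM. NIH/3T3 was highest in the later group and mESCs in the earlier one. The lowest place in each rested on 1 gene: without Slc2a3 the earlier group came to 922 CPM in N2a, 938 CPM in NIH/3T3 cells and 1263 CPM in mESCs, and without Tpi1 the later group came to 1546, 3264 and 1603 CPM. This division was chosen after the values were seen. In the later group only Eno2 and Ldha had no near-identical copy over at least 50% of the transcript elsewhere in the genome, as given below.

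**Figure D4:**
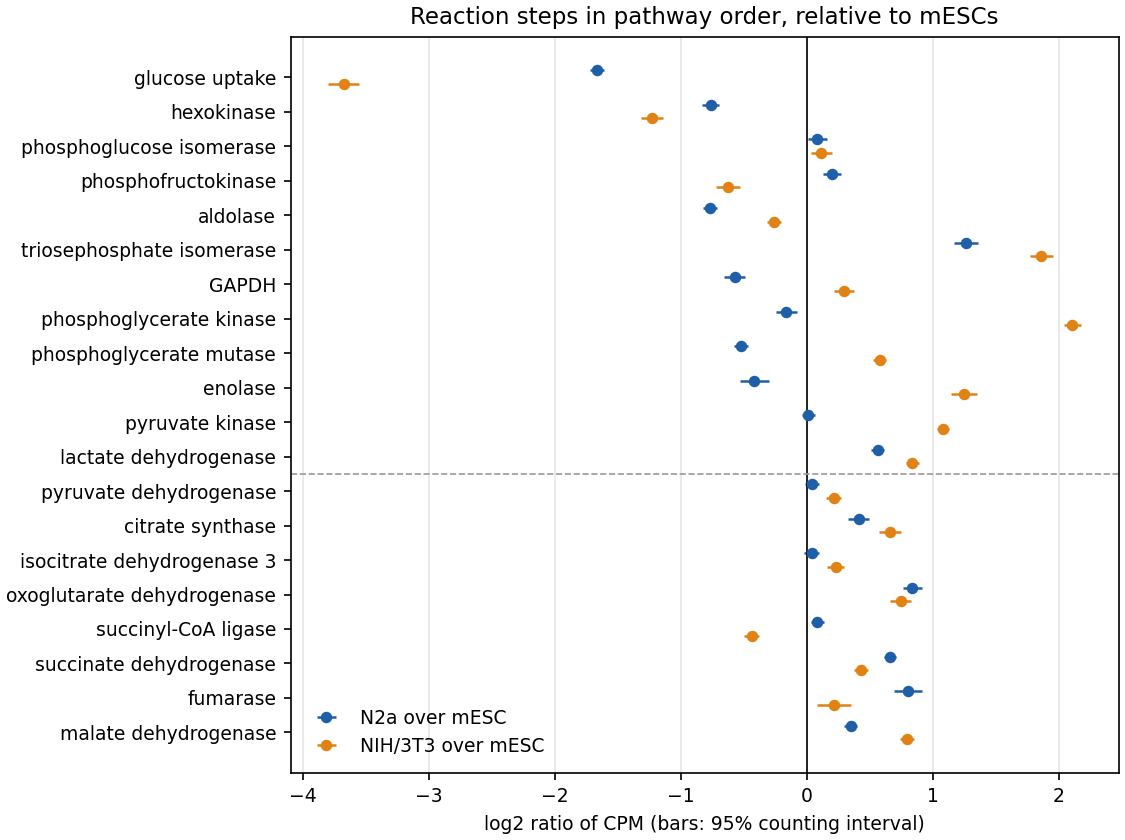
Log2 ratio of the summed CPM of each reaction step, N2a over mESCs (blue) and NIH/3T3 over mESCs (orange), in pathway order from glucose uptake to malate dehydrogenase, with 95% counting intervals. The dashed line divides glycolysis from pyruvate dehydrogenase and the TCA cycle. NIH/3T3 ran from -3.68 at glucose uptake to 2.11 at phosphoglycerate kinase, whereas its TCA steps lay between -0.44 and 0.79.

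Lactate dehydrogenase is a tetramer of A subunits, encoded by Ldha and favouring lactate formation, and B subunits, encoded by Ldhb and more abundant in heart and other oxidative tissues. A stretch before the Ldha start site is shown because Ldha had more matches to ACGTG than Hk2, Pfkp or Pgk1. It is chr7:46495013-46495131 on the plus strand, 119 bases that end where an exon of another transcript begins, before the canonical start but inside the span of the gene (chromosome 7, 46490899 to 46505061). Capitals mark the same motifs, and CACGTG in this stretch is an E-box that holds ACGTG on both strands.
Ldha: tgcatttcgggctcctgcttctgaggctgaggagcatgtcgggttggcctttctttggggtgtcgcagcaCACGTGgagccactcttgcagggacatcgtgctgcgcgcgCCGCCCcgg

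Ldha was at 500 CPM in N2a (489 to 510), 563 CPM in NIH/3T3 cells (550 to 577) and 264 CPM in mESCs (255 to 273). Ldhb was at 0.557 CPM in N2a (0.267 to 1.02), 43.0 CPM in NIH/3T3 cells (39.3 to 46.9) and 75.0 CPM in mESCs (70.2 to 80.0). Its 10 UMIs in N2a came to 0.743% of the mESC level (0.355 to 1.37), an interval that reaches into the range of the mESC markers in N2a, and were not distinguishable from background. Over BC1 sequences Ldhb ran from 0 to 4.17 CPM in N2a, from 15.9 to 72.8 CPM in NIH/3T3 cells and from 40.9 to 117 CPM in mESCs. N2a lay below both other lines, whose ranges overlapped.

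Ldhb took 0.111% of lactate dehydrogenase UMIs in N2a (0.0534 to 0.205), 7.09% in NIH/3T3 cells (6.51 to 7.72) and 22.1% in mESCs (20.9 to 23.4). Per exonic kilobase the shares were 0.117%, 7.45% and 23.0%, close to those by UMIs. Both genes together came to 500 CPM in N2a, 606 CPM in NIH/3T3 cells and 339 CPM in mESCs. Lower Ldha and higher Ldhb thus stood side by side in mESCs.

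The 250 bases before the canonical start were searched in all members on both strands. ACGTG was found in 7 of 19 glycolysis genes (36.8%), 3 of 19 TCA genes (15.8%) and 17.1% of 21303 protein-coding genes. Ldha had 5 matches, some of them between the stretch shown and the start, and Hk2, Pfkp and Pgk1 had 2 each, counting both strands of a CACGTG. The E-box CACGTG was found in 10.5% of glycolysis genes, 0 of 19 TCA genes and 6.29% of all. GGGCGG was found in 42.1%, 57.9% and 36.5%, and TATAAA in 15.8%, 5.26% and 11.9%. Slc2a1 and Slc2a3 did not hold ACGTG in this window, and the form GCGTG was not searched. A match describes letters in a window and does not show binding.

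Pyruvate dehydrogenase, the gate from glycolysis to the TCA cycle, was even across lines, with a sum of Pdha1, Pdhb and Dlat of 362 CPM in N2a, 409 CPM in NIH/3T3 cells and 352 CPM in mESCs. Pdha1, the E1 alpha subunit, was at 167, 165 and 179 CPM. The intervals of single lines overlapped, but the mESC level was 1.07 times that of N2a (1.02 to 1.13) and 1.09 times that of NIH/3T3 (1.02 to 1.16). Dlat, the E2 core subunit, was less even, with 114 CPM in N2a (110 to 119), 161 CPM in NIH/3T3 cells (154 to 169) and 81.0 CPM in mESCs (76.0 to 86.2). Cs, which joins acetyl-CoA to oxaloacetate, was at 183 CPM in N2a, 217 CPM in NIH/3T3 cells and 138 CPM in mESCs.

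The NAD-dependent isocitrate dehydrogenase was among the steadiest steps, with 300 CPM in N2a, 342 CPM in NIH/3T3 cells and 292 CPM in mESCs for Idh3a, Idh3b and Idh3g together. N2a and mESCs did not differ there beyond counting error, with a ratio of 1.03 (0.983 to 1.07). The subunits of the oxoglutarate dehydrogenase complex did not follow each other. Ogdh, its E1 subunit, was highest in N2a with 189 CPM, against 117 CPM in NIH/3T3 cells and 95.9 CPM in mESCs. Dlst, its E2 subunit, was highest in NIH/3T3 with 138 CPM, against 83.3 CPM in N2a and 56.7 CPM in mESCs. Both were lowest in mESCs, and Dlst was 2.44 times as high in NIH/3T3 as there (2.23 to 2.67).

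Succinyl-CoA ligase pairs the shared alpha subunit Suclg1 with the ADP-forming beta subunit Sucla2 or the GDP-forming beta subunit Suclg2. Suclg1 was at 140 CPM in N2a (135 to 146), 66.3 CPM in NIH/3T3 cells (61.8 to 71.2) and 90.1 CPM in mESCs (84.9 to 95.5). Sucla2 was at 60.7, 44.1 and 99.5 CPM, and Suclg2 at 260, 211 and 246 CPM. NIH/3T3 was lowest for all 3 subunits, and this was the only step of the TCA list whose sum was lowest in that line.

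The Sucla2 share of beta subunit UMIs was 18.9% in N2a (17.9 to 19.9), 17.3% in NIH/3T3 cells (16.0 to 18.7) and 28.8% in mESCs (27.5 to 30.2). Suclg2 spans 262636 bases against 71577 for Sucla2, and per kilobase of span the Sucla2 share was 46.1%, 43.5% and 59.8%. Which beta subunit led in mESCs thus depended on the length used.

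Succinate dehydrogenase, which is also complex II of the respiratory chain, has a flavin subunit (Sdha), an iron-sulfur subunit (Sdhb) and a pair of membrane anchors (Sdhc and Sdhd). Sdhb was at 304 CPM in N2a (296 to 312), 203 CPM in NIH/3T3 cells (195 to 212) and 96.7 CPM in mESCs (91.3 to 102). It had the widest range among TCA members, 3.14 times as high in N2a as in mESCs (2.95 to 3.35). Sdha was instead highest in mESCs, with 99.9 CPM in N2a, 90.3 CPM in NIH/3T3 cells and 143 CPM in mESCs (137 to 150).

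The anchors followed neither subunit closely. Sdhc was at 136 CPM in N2a, 117 CPM in NIH/3T3 cells and 86.7 CPM in mESCs, and Sdhd at 64.8, 105 and 55.4 CPM. Over BC1 sequences Sdhb ran from 237 to 398 CPM in N2a and from 67.6 to 159 CPM in mESCs without overlap, while Sdha ran from 66.3 to 128 CPM in N2a and from 99.8 to 218 CPM in mESCs with overlap. The 4 transcripts of this complex were thus not held in a fixed ratio across lines.

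Fh1, the fumarase, was at 123 CPM in N2a, 82.1 CPM in NIH/3T3 cells and 70.8 CPM in mESCs. Mdh1, the cytosolic malate dehydrogenase, was at 196, 151 and 114 CPM, and Mdh2, the mitochondrial form of the cycle, at 246 CPM (239 to 253), 451 CPM (439 to 464) and 234 CPM (225 to 242). Mdh2 had the highest value of any TCA member, in NIH/3T3, 1.83 times its level in N2a (1.76 to 1.91). The cytosolic and mitochondrial forms thus had different orders, N2a being highest for Mdh1 and NIH/3T3 for Mdh2.

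The members varied among the cells of a line about as other genes of the same matrices did. The dispersion of a member is the mean squared Pearson residual of its UMIs over cells given each cell's depth, and is near 1 for counting noise alone. Among members at 10 CPM or more in the line, it lay above the median of all genes for 21 of 35 in N2a, 19 of 35 in NIH/3T3 cells and 16 of 36 in mESCs. It passed the 90th percentile of all genes for Ldha in N2a (1.45 against 1.39), Pgk1 and Pkm in NIH/3T3 cells (1.34 and 1.36 against 1.30) and Slc2a3 and Pfkp in mESCs (1.59 and 1.42 against 1.36). Each of these was at 157 CPM or more in its line.

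The median cell had 0.288% of its UMIs from the glycolysis list in N2a, 0.446% in NIH/3T3 cells and 0.349% in mESCs. The central 80% of cells, from the 10th to the 90th percentile, ran from 0.163% to 0.418% in N2a, from 0.279% to 0.656% in NIH/3T3 cells and from 0.206% to 0.504% in mESCs. These ranges rest on medians of 18, 22 and 17 UMIs of the list per cell. The dispersion of the summed list was 1.95 in N2a, 2.25 in NIH/3T3 cells and 1.65 in mESCs for glycolysis, and 1.74, 1.33 and 1.22 for the TCA cycle. Across cells the shares of the glycolysis and TCA lists had a Pearson correlation of 0.29 in N2a (2323 cells), 0.24 in NIH/3T3 cells (2037 cells) and 0.13 in mESCs (2137 cells), points that share the depth of each cell as a denominator.

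At least 1 UMI of Slc2a3 was seen in 63.3% of N2a cells (61.3 to 65.3), 1.52% of NIH/3T3 cells (1.04 to 2.15) and 85.2% of mESCs (83.6 to 86.6). Thinned to 1000 UMIs per cell, the shares were 17.95%, 0.245% and 44.5%. The NIH/3T3 share serves as the background for this gene. Ldhb was seen in 0.430% of N2a cells, 19.7% of NIH/3T3 cells and 29.1% of mESCs, and after thinning in 0 of 2323 N2a cells (up to 0.159%), 3.53% of NIH/3T3 cells and 7.49% of mESCs. Of the mESCs, 21.2% (19.5 to 23.0) had UMIs of both Ldha and Ldhb and 7.86% of Ldhb alone. Among mESCs 26.6% had UMIs of both Slc2a1 and Slc2a3, and 11.7% of both hexokinases. Thinned to 1000 UMIs, 1.31% of mESCs had both lactate dehydrogenases, 3.23% both transporters and 0.702% both hexokinases. Doublets and free RNA can add to these shares, and their part was not tested.

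Several members share sequence with copies elsewhere in the genome, and the counting of reads with more than 1 alignment is not given in the sources used here. A copy was counted only where it covered at least 50% of the canonical transcript, so shorter copies were left out. Searched against GRCm39 at 95% identity or more, 10 members had at least 1 copy, with 46 for Gapdh, 3 for Eno1, 2 each for Pgk1 and Pgam1, and 1 each for Gpi1, Tpi1, Pkm, Ldhb, Pdhb and Suclg2. The copies covered 100% of the last 500 bases of the canonical transcript for Gapdh, Pgk1 and Pdhb, 98.6% to 99.6% for Pgam1, Eno1, Ldhb and Pkm, 74.2% for Tpi1 and 0% for Gpi1 and Suclg2. The levels of these 10 genes are therefore uncertain between genes, and their part in the differences between lines was not tested. They include Tpi1, Gapdh, Pgk1, Pgam1, Eno1 and Pkm, so the first place of NIH/3T3 in the glycolysis sum is uncertain too. That place was not kept without them: the levels of the other glycolysis members added up to most in mESCs and least in NIH/3T3. Of the glycolysis members without such a copy, Slc2a1, Slc2a3, Hk2, Pfkp, Aldoa and Aldoc were highest in mESCs. Hk1, Pfkl and Ldha were highest in NIH/3T3, and Pfkm and Eno2 in N2a. Slc2a1, Slc2a3, Hk1, Hk2, all phosphofructokinases, Ldha and the 4 succinate dehydrogenase genes were among the 28 members with no such copy. Aldoa overlaps a second gene on the same strand over 6066 bases, Slc2a3 overlaps ENSMUSG00000121202 over 2733 bases and Pfkm overlaps Gm26513 over 2489 bases, and these partners of Slc2a3 and Pfkm were at 0 CPM in every line. On the opposite strand, Pfkm overlaps Senp1 (97.7 to 126 CPM) and Pfkp overlaps Pitrm1 (66.6 to 113 CPM), and other members overlap further genes there. Whether the counting used strand is not given in the sources used here, and the levels of these members are uncertain to that extent.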

How the data were processed

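The authors deposited raw UMI counts per gene and barcode for each line and for the pooled library, aligned to GRCm39 with the GENCODE M30 annotation per the study's methods and counted with STARsolo. The deposited counts are not normalized, and whether introns or strand entered the counting is not given in the sources used here. Barcodes were kept from 1000 UMIs upwards and up to a mitochondrial share of 20%. Doublets were not called, but dropping the deepest 5% of cells was tried. Library sizes and depths are given in the report. UMIs were summed per line and scaled to CPM, with exact Poisson and Clopper-Pearson intervals (scipy 1.17.1, numpy 2.4.6, pandas 2.3.3, Python 3.11.15), and folds were counted on log2(CPM + 1). Isoform shares were also divided by exonic length and by gene span in the GENCODE M39 annotation of GRCm39, which held 32953 of the 33565 identifiers. This annotation also gave the positions and start sites, and the genome sequence of the same build gave the stretches shown. For thinning, 1000 UMIs were drawn per cell at random. Copies were searched with BLAST 2.17.0, hits of at least 89 bases that together covered at least 50% of the canonical transcript. The interval functions were tested on simulated data. The members and gene lists were chosen with earlier results of these data known. All members are accounted for. Genes of the other lists were named where their mean was at least 10 CPM and their highest and lowest CPM + 1 differed at least 4-fold, with exceptions stated beside them. The pooled matrix was used only as an alternative source of the same counts.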

Additional observations from a re-analysis of the deposited data

How the results depend on the processing

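None of the list ratios between lines turned its direction under these settings, apart from the TCA ratio of N2a to NIH/3T3. That ratio lies at 0 within its counting error. No setting left out all members with copies elsewhere in the genome. Over the glycolysis members without such copies, the levels given above add up to most in mESCs and least in NIH/3T3. There the glycolysis ratios of N2a over NIH/3T3 and of NIH/3T3 over mESCs have the other direction. The part of the copies in this was not tested. The leading isoform of a set did turn with the length used, as given for hexokinases, phosphofructokinases and succinyl-CoA ligase. On the log2 scale the glycolysis sum of N2a over NIH/3T3 was -0.65 as reported, -0.68 over all barcodes, -0.70 without mitochondrial and ribosomal genes, -0.72 under median-of-ratios scaling and -0.57 without the most abundant member of the list. NIH/3T3 over mESCs was 0.35 as reported, 0.39, 0.38, 0.41 and 0.22 under the same settings, and 0.38 with each cell weighted alike. N2a over mESCs was -0.30 as reported, -0.28 with each cell weighted alike and -0.35 without the most abundant member. For the TCA sum, N2a over NIH/3T3 was 0.00 as reported, -0.041 without mitochondrial and ribosomal genes, -0.067 under median-of-ratios scaling and 0.13 without the most abundant member. NIH/3T3 over mESCs was 0.34, 0.37, 0.40 and 0.24, and N2a over mESCs 0.34 as reported and 0.37 without that member. At 1.5-fold, 11 of 36 members were higher in NIH/3T3 than in N2a beside 25.4% of all genes, 11 in N2a than in mESCs beside 29.5% and 14 in NIH/3T3 than in mESCs beside 29.8%. The Slc2a3 share in NIH/3T3 was 7.42% over all barcodes. The Slc2a3 share was 88.6%, 3.34% and 84.7% per exonic kilobase and 83.7%, 2.23% and 78.5% per kilobase of span in N2a, NIH/3T3 and mESCs, the Hk2 share per kilobase of span 76.9%, 59.1% and 94.7%, and the Ldhb share 5.41% in NIH/3T3 cells and 17.5% in mESCs. The cause of these shifts was not tested beyond the change of denominator or gene list itself. The cells called by the default rule of STARsolo, a minimum of 2000 UMIs, dropping the deepest 5% of cells and the pooled matrix moved 0 of 21 results each past the 95% counting interval or, for counts of members, by more than 1.5-fold. Without the deepest 5% the count for N2a over NIH/3T3 went from 4 to 3, for N2a over mESCs from 5 to 6 and for NIH/3T3 over mESCs from 9 to 10. In settings added after the values were seen, the log2 ratio of N2a over NIH/3T3 for the genes from Slc2a1 to Aldoc went from 0.25 to -0.025 without Slc2a3, and that of N2a over mESCs for the genes from Tpi1 to Ldhb from 0.063 to -0.052 without Tpi1. No paired analysis was possible because each line is 1 sample and the labels give no replicate numbers. Depth limits Aldoc, Eno2, Ldhb in N2a and Slc2a3 in NIH/3T3, which rest on few UMIs.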

Other observations

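Among genes outside the set, regulators of glycolysis and of pyruvate dehydrogenase also differed between lines. Pfkfb3, which makes the phosphofructokinase activator fructose 2,6-bisphosphate, was at 60.1 CPM in N2a (56.6 to 63.8), 4.45 CPM in NIH/3T3 cells and 6.09 CPM in mESCs. Tigar, which breaks that activator down, was at 17.4, 12.1 and 89.03 CPM. The pyruvate dehydrogenase kinases, which switch the complex off, had low counts in N2a: Pdk1, Pdk2, Pdk3 and Pdk4 together had 37 UMIs there, or 2.06 CPM (1.45 to 2.84), against 55.1 CPM in NIH/3T3 cells and 87.0 CPM in mESCs. Pdk3 took 71.6% of these UMIs in mESCs and 44.2% in NIH/3T3, where Pdk1 took 48.1%. Pdp2, a phosphatase that switches the complex back on, was at 11.8, 13.7 and 54.1 CPM, and Pdp1, the other such phosphatase listed, at 18.8, 13.3 and 3.98 CPM. In the list of regulators and carriers 12 of 18 genes reached a mean of 10 CPM, and 1 to 5 of them were at least 2-fold higher in a given direction, beside 15.5% to 19.7% of all genes, with 5 of 12 for mESCs over N2a beside 17.0%. Of 15 other pathway enzymes 14 reached that mean, with 1 to 3 higher in a given direction beside the same 15.5% to 19.7%. Pcx, which makes oxaloacetate from pyruvate, was at 34.2, 6.41 and 12.0 CPM, and Pgm1, which links glucose 6-phosphate to glycogen, at 25.1, 80.5 and 11.7 CPM.

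Mitochondrial shuttles showed a further isoform switch, and 7 of their 8 listed genes reached a mean of 10 CPM, with 0 to 3 at least 2-fold higher in a given direction, beside 15.5% to 19.7% of all genes. Slc25a13 (citrin) and Slc25a12 (aralar) are the aspartate-glutamate carriers of the malate-aspartate shuttle, and Slc25a13 took 4.13% of their UMIs in N2a (3.19 to 5.26), 73.0% in NIH/3T3 cells (71.1 to 74.9) and 88.7% in mESCs (87.9 to 89.5). Slc25a13 itself was at 3.51, 133 and 398 CPM. Gpd2 of the glycerol phosphate shuttle was at 39.4, 281 and 124 CPM. Eno3, the muscle enolase, was at 6.52 CPM in N2a, 131 CPM in NIH/3T3 cells (125 to 138) and 7.55 CPM in mESCs, and with it the enolases came to 76.9, 354 and 101 CPM, of which Eno3 took 37.1% in NIH/3T3 cells (35.6 to 38.6). The shares with Eno3 and of the carriers and kinases were computed after the values were seen. Of the other 13 isozymes listed, 2 reached a mean of 10 CPM, Adpgk and Ogdhl.

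The hypoxia-inducible list had no common order of the lines. Of its 14 genes 10 reached a mean of 10 CPM, with 2 to 5 at least 2-fold higher in a given direction beside 15.5% to 19.7% of all genes, the 5 being N2a over mESCs beside 19.7%. Ndrg1 was at 0.334 CPM in N2a, 95.3 CPM in NIH/3T3 cells and 4.79 CPM in mESCs, Bnip3 at 19.5, 58.5 and 8.60 CPM and P4ha1 at 65.3, 192 and 29.4 CPM. P4ha2 was at 63.7, 8.12 and 12.7 CPM and Ddit4 at 94.2, 30.4 and 20.05 CPM, highest in N2a, and Kdm3a at 85.0, 62.2 and 393 CPM, highest in mESCs. In the pentose phosphate list 3 of 7 genes passed 2-fold in any pair, beside 54.1% of all genes, among them G6pdx, its first enzyme, at 50.1, 86.8 and 21.4 CPM. Of the glutamine entry genes 5 of 6 reached a mean of 10 CPM, with 0 to 2 at least 2-fold higher in a given direction beside 15.5% to 19.7% of all genes, and Slc38a1 was at 610, 160 and 178 CPM and Glud1 at 104, 293 and 378 CPM. Pdp1, G6pdx, Slc38a1 and Glud1 fell short of the 4-fold range used for naming and were chosen after their values were seen.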
